A study of Mus musculus with 6 samples.

Results

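The post-squalene sterol enzymes were described in mouse erythroblasts cultured with or without added cholesterol. They are the products of 9 genes, Lss, Cyp51, Tm7sf2, Msmo1, Nsdhl, Hsd17b7, Ebp, Sc5d and Dhcr7, which were taken by gene symbol and enzymatic function, with earlier results of these data known. All 9 were among the 17463 genes of the expression tables, and all 9 passed the filter on low counts that left 11277 genes for testing. The cells came from fetal liver of C57BL/6J mice, whose embryonic age the sample labels do not give. Cells negative for TER119, a surface protein that appears as erythroblasts mature, were placed in culture with erythropoietin for 30 h, and TER119+ cells were then sorted for RNA-seq. The control group (3 samples) received no cholesterol, and the cholesterol group (3 samples) received 40 µM cholesterol. The labels call the controls untreated, whereas the study calls them vehicle-treated. Nothing in the labels says whether the 3 samples of a group came from separate litters or cultures, so p-values measure the spread between these samples, which may be technical.

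Cholesterol is built from acetyl-CoA through mevalonate to squalene, and the post-squalene arm then folds this open chain into rings and trims it. Lss closes the rings to give lanosterol, and the enzymes that follow remove 3 methyl groups, move and reduce double bonds, and end with cholesterol. In most cells the genes of the pathway are switched on by SREBP2, a membrane-bound transcription factor that is released for cleavage when sterols in the endoplasmic reticulum are scarce and is held back when they are plentiful. Cholesterol is a main lipid of the membrane of the red cell, into which the erythroblast matures.

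Each library held between 19826849 and 20061724 counts. Levels are given as CPM, the counts of a gene per 1000000 counts of the library after TMM scaling, and 3 counts, taken as the floor of detection, corresponded to 0.148 to 0.156 CPM. Of 12 erythroblast markers, 11 were in the table and all 11 were detected. Their summed level was 155347 to 208172 CPM in the controls and 139963 to 185729 CPM with cholesterol. The samples numbered 3 stood apart from the others in both groups. On the first principal component, which held 70.3% of the variance, control 3 lay at 58.5 and cholesterol 3 at 32.5, whereas the other 4 samples lay between -39.6 and 2.39.

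Promoter sequence was examined because SREBP2 acts through short sterol regulatory elements that work together with NF-Y, which binds CCAAT, and Sp1, which binds the GC box GGGCGG. The 250 bases before each RefSeq transcription start (GRCm38.p6, the build named in the submitters' processing notes) were searched on both strands. Dhcr7 had 3 annotated starts and the other members 1 each. The share of genes with a motif is given over all 27025 genes with a promoter and over the 9032 of them that were tested. CCAAT was present in 9 of 9 members against 37.49% of all and 41.44% of tested genes, and GGGCGG in 9 of 9 members against 35.36% of all and 63.35% of tested genes. The E-box CACGTG was found in 3 members, Hsd17b7, Sc5d and Dhcr7, against 6.86% of all and 10.04% of tested genes. The stringent sterol element core TCACNCCAC was found in 0 of 9 members, in 1.22% of all and in 1.28% of tested genes.

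A looser form, TCACNNCA, which contains every match of TCACNCCAC, was chosen after the promoters had been read and with the fold changes known. It was present in 5 of 9 members, in 12.98% of all and in 11.36% of tested genes. The 7 matches in these 5 promoters all lay on the strand of the gene. They are printed 5′ to 3′ on that strand with 10 bases on each side and with the match in capitals.
Cyp51: taggccgagaTCACCTCAgcagcgcgtg
Hsd17b7: tcggcctatcTCACCTCAcccggtctgg
Sc5d: cgatccgccgTCACATCAgcttattgcg
Dhcr7, start 3: gtctgtgaccTCACATCAtctggggcgg
Dhcr7, start 2: ggaaaagggcTCACTTCAccttatagct
Msmo1, distal match: ctcactattcTCACTCCAtccgcgcagc
Msmo1, proximal match: cacggaccaaTCACTGCAcggcgaaggc

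The Cyp51 stretch lies at chr5:4104768-4104795 (minus strand) and that of Hsd17b7 at chr1:169969305-169969332 (minus strand), and both carry the same 8 bases. Sc5d (chr9:42264335-42264362, minus strand) and start 3 of Dhcr7 (chr7:143830172-143830199, plus strand) share another form of the 8 bases. Start 2 of Dhcr7 (chr7:143823259-143823286) and both Msmo1 stretches (chr8:64733738-64733765 and chr8:64733653-64733680, minus strand) each have a form of their own. In Msmo1 the proximal match starts on the last base of a CCAAT. The matches of Msmo1 and Dhcr7 lie in the 5′ UTR of a GENCODE vM21 transcript model that starts further upstream, and those of Cyp51, Hsd17b7 and Sc5d lie in no exon.

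The distance between a TCACNNCA match and a CCAAT on either strand can be read from a stretch of the Sc5d promoter, in which both are in capitals, the second as its reverse complement. It spans chr9:42264308-42264364 on the minus strand, ending 8 bases before the start.
Sc5d: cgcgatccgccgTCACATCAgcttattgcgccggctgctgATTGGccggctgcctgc

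The 4 members without TCACNNCA, namely Lss, Tm7sf2, Nsdhl and Ebp, still carried CCAAT. Lss (chr10:76531531-76531559, plus strand) and Tm7sf2 (chr19:6067881-6067909, minus strand) each had it once, as the reverse complement in capitals.
Lss: ggtgatgctctgATTGGccgagctcgcat
Tm7sf2: ctcccagcgctgATTGGctactgtgctgg

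A match describes these letters and does not show binding. Among the 9032 tested genes with a promoter in the RefSeq table, those with TCACNNCA (1026 genes) had a median log2 fold change of -0.0018 and those without it one of 0.0082. Of the 6 early pathway genes with a promoter in the table, 2 carried TCACNNCA (Hmgcs1 and Pmvk), 5 CCAAT, 5 GGGCGG, 1 TCACNCCAC and 0 CACGTG.

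The comparison of the groups asked how much transcript of each enzyme the cells held when cholesterol was supplied from outside. The mean of every one of the 9 members was lower with cholesterol, by between 1.29-fold for Ebp and 6.78-fold for Msmo1, and the median log2 fold change was -1.21, against 0.01 over all genes tested. Summed over the members, the level was 529, 394 and 195 CPM in controls 1, 2 and 3 and 150, 136 and 114 CPM in the samples with cholesterol. The groups did not overlap in this sum, and control 3 was the control closest to the cholesterol samples. The size of the difference was very unequal among the enzymes.

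With condition as the sole term in edgeR's quasi-likelihood test, 0 of 9 members passed an adjusted p of 0.05, as did 0% of all genes for a lower level. The adjusted p was 0.864 for Hsd17b7 and above 0.99 for the other 8 members. At an unadjusted p below 0.05, 7 of 9 members were lower (all but Lss and Tm7sf2), against 1.92% of genes. The same-numbered samples of the groups deviated together from their group means, least closely in pair 2. The replicate number was therefore also fitted as a block. With this block, Nsdhl, Hsd17b7, Ebp, Sc5d and Dhcr7 passed, 5 of 9 members against 5.2% of genes. DESeq2's Wald test, which has no block, called 4 of 9 members, Cyp51, Msmo1, Hsd17b7 and Sc5d, against 0.228% of genes. Hsd17b7 and Sc5d were called by both, and Lss and Tm7sf2 by neither. All 3 control values lay above all 3 cholesterol values in 6 of 9 members in CPM, against 4.28% of genes, and in 4 of 9 members in FPKM, against 2.94% of genes.

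The summed markers of erythroblasts, erythroid progenitors, granulocytes, macrophages, mast cells and megakaryocytes were all lower with cholesterol in each same-numbered pair. Those of erythroblasts, granulocytes, macrophages, mast cells and hepatocytes were highest in sample 3 of either group. All 4 erythroid progenitor markers (Kit, Gata2, Myb and Cd34) were detected, and their summed level was 21.5 to 31.1 CPM in the controls and 11.5 to 15.6 CPM with cholesterol. All 10 granulocyte markers were detected, with sums of 72.6, 270 and 728 CPM in controls 1 to 3 and 44.0, 116 and 303 CPM in cholesterol 1 to 3. All 9 macrophage markers were detected and summed to 30.1, 90.4 and 297 CPM in the controls and 20.1, 38.7 and 107 CPM with cholesterol. The 6 mast cell and basophil markers summed to 1.77, 4.41 and 19.1 CPM in the controls and 0.542, 1.33 and 2.96 CPM with cholesterol. The 5 megakaryocyte markers summed to 69.1, 61.0 and 75.2 CPM in the controls and 65.4, 58.2 and 59.7 CPM with cholesterol. The 5 hepatocyte markers summed to 115, 95.4 and 271 CPM in the controls and 199, 67.1 and 232 CPM with cholesterol, so that they were higher with cholesterol in pair 1. Over all 6 samples the groups overlapped in each of these sums except that of the progenitor markers. With condition alone in edgeR, 0 markers of any list were called. DESeq2's Wald test called 1 of the tested markers lower, the progenitor gene Gata2 (log2 fold change -1.65, adjusted p = 0.00904), against 0.228% of genes. With the replicate block in edgeR, those called lower were 4 of 11 tested for erythroblasts, 3 of 4 for progenitors, 9 of 10 for granulocytes, 5 of 9 for macrophages, 2 of 2 for mast cells, 1 of 5 for megakaryocytes and 0 of 5 for hepatocytes, against 5.2% of genes. No marker of these lists was at 0 in every sample. The part of these cells in the results was not tested. In bulk RNA, fewer cells of a type and less RNA per cell cannot be told apart.

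**Figure D1:**
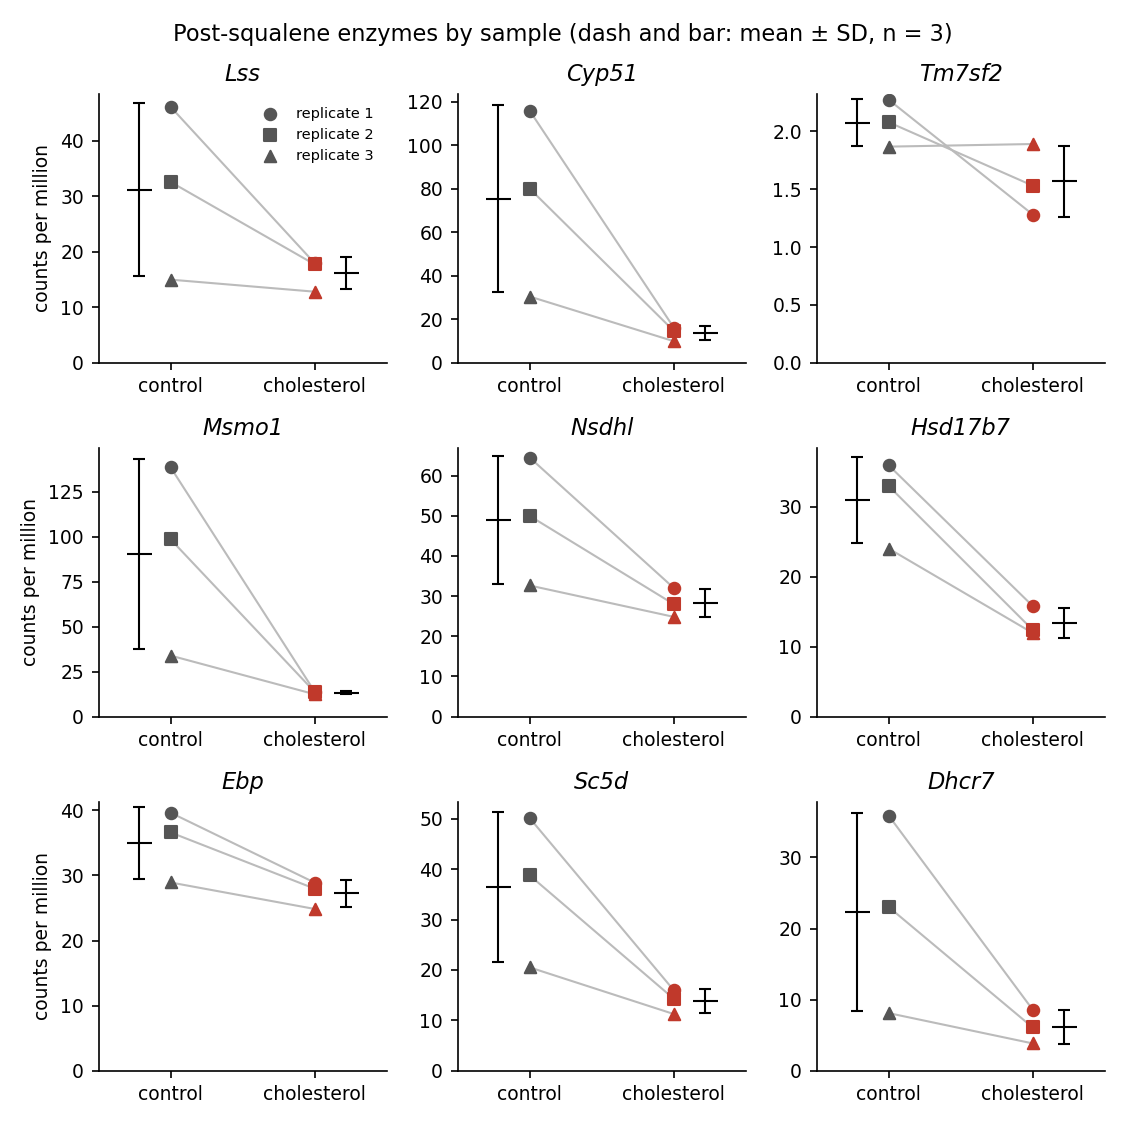
Level of each of the 9 enzymes in CPM (y axis, from 0 in each panel) in 3 control samples (grey) and 3 samples with 40 µM cholesterol (red). Point shape gives the replicate number, grey lines join samples with the same number, and the dash with its bar is the mean ± SD; Tm7sf2 is the enzyme whose line for replicate 3 does not go down.

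Lss (lanosterol synthase, chr10:76531588-76557138) catalyses the entry step, in which oxidosqualene is folded into lanosterol. Its level was 46.1, 32.5 and 14.95 CPM in controls 1 to 3 and 17.9, 17.7 and 12.8 CPM in cholesterol 1 to 3. Controls 1 and 2 were above every cholesterol sample, but control 3 lay within the cholesterol group, so that the groups overlapped. The log2 fold change was -0.95 ± 0.40 (SE, n = 3 per group), and with the replicate block it was -0.89 with an adjusted p of 0.302 in edgeR. Lss overlaps an antisense gene, 4930483K19Rik, and the strand setting of the counting is not given in the sources used here.

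Cyp51 (chr5:4081145-4104746) is the cytochrome P450 that removes the first methyl group from lanosterol and is the target of azole drugs in fungi; the gene overlaps Akap9 on the opposite strand. It was present at 116, 80.0 and 30.4 CPM in the controls and at 16.2, 14.6 and 9.87 CPM with cholesterol. The groups did not overlap, and even control 3 was 1.88 times the highest cholesterol sample. The mean changed from 75.4 ± 42.9 to 13.6 ± 3.28 CPM (SD, n = 3 per group), a log2 fold change of -2.48 ± 0.49. It passed in DESeq2 (adjusted p = 8.24e-06) and missed the threshold in edgeR with the block (adjusted p = 0.105), and its difference in log2 CPM was -2.83 in pair 1 and -1.61 in pair 3.

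Tm7sf2 (chr19:6062821-6068373) reduces the double bond that Cyp51 leaves behind, a reaction that the lamin B receptor Lbr also performs. Tm7sf2 was the least abundant member, with 26 to 45 counts per library, and it overlaps Vps51 on the same strand. Its level was 2.27, 2.08 and 1.87 CPM in the controls and 1.28, 1.53 and 1.89 CPM with cholesterol. The groups overlapped, and in pair 3 the samples were nearly equal. The log2 fold change of -0.40 ± 0.26 did not pass in edgeR (adjusted p = 0.439 with the block). Lbr, the other enzyme of this step, was 160 ± 8.68 FPKM in the controls and 136 ± 6.63 FPKM with cholesterol (SD, n = 3 per group), on the authors' scale per length and depth. On that scale Lbr was between 101 and 145 times Tm7sf2 in each sample. The log2 fold change of Lbr was -0.27, which did not pass with condition alone in edgeR and passed with the block (adjusted p = 2.47e-04).

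Msmo1, Nsdhl and Hsd17b7 work in sequence on the remaining pair of methyl groups. Msmo1 (chr8:64718139-64733792) oxidises each methyl group, Nsdhl (chrX:72918557-72958514) removes it as carbon dioxide, and Hsd17b7 (chr1:169949535-169969241) reduces the ketone that results. Msmo1 had the widest difference of the members. It was present at 138, 98.4 and 33.9 CPM in the controls and at 13.8, 13.7 and 12.4 CPM with cholesterol. The control values covered a 4.08-fold range whereas the cholesterol values were within 1.11-fold of each other, and the groups did not overlap. The log2 fold change was -2.76 ± 0.49 (SE, n = 3 per group), with an adjusted p of 9.57e-08 in DESeq2 and of 0.179 in edgeR with the block.

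Nsdhl differed by less. Its level was 64.5, 50.0 and 32.7 CPM in the controls and 32.0, 28.01 and 24.8 CPM with cholesterol. Control 3 and cholesterol 1 were nearly level, and on the FPKM scale their order was the opposite, with 13.97 and 14.56, so that whether the groups overlap depends on the scaling. Its log2 fold change was -0.79 ± 0.25, and with the block in edgeR it passed the threshold (-0.77, adjusted p = 0.0211).

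The level of Hsd17b7 was 35.9, 33.0 and 24.0 CPM in the controls and 15.8, 12.4 and 11.96 CPM with cholesterol, and the groups did not overlap. The log2 fold change was -1.21 ± 0.19, with a difference in log2 CPM between -1.001 and -1.40 in the 3 pairs. It was the member with the smallest adjusted p under the block in edgeR (1.51e-08), and it also passed in DESeq2 (adjusted p = 2.41e-05). Thus within the same C4 demethylation sequence the first enzyme changed from 90.2 ± 52.7 to 13.3 ± 0.764 CPM, the second from 49.0 ± 15.9 to 28.3 ± 3.60 CPM and the third from 31.0 ± 6.20 to 13.4 ± 2.11 CPM (SD, n = 3 per group).

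Ebp, Sc5d and Dhcr7 finish the ring. Ebp (chrX:8185329-8193512) shifts a ring double bond, Sc5d (chr9:42251595-42264256) adds another, and Dhcr7 (chr7:143823145-143848410) removes the last superfluous double bond from 7-dehydrocholesterol, which in skin is also the precursor of vitamin D. With condition alone Ebp had the smallest log2 fold change of the members, -0.36 against -0.40 for Tm7sf2. Without cholesterol 1 their order was the opposite, with -0.41 for Ebp and -0.28 for Tm7sf2. Ebp was 39.6, 36.6 and 28.9 CPM in the controls and 28.9, 27.96 and 24.8 CPM with cholesterol, and control 3 and cholesterol 1 were level. On the FPKM scale control 3 (15.81) lay below cholesterol 1 and 2 (16.78 and 16.21), and the groups overlapped. The log2 fold change of Ebp, -0.36 ± 0.13, was negative in the 3 pairs (-0.46, -0.39 and -0.22 in log2 CPM) and passed with the block in edgeR (adjusted p = 0.00172).

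Sc5d was 50.1, 38.8 and 20.5 CPM in the controls and 16.0, 14.3 and 11.2 CPM with cholesterol, without overlap. Its log2 fold change was -1.40 ± 0.33, and it passed with the block in edgeR (adjusted p = 0.0106) and in DESeq2 (adjusted p = 0.0107). Dhcr7 was 35.9, 23.0 and 8.10 CPM in the controls and 8.58, 6.08 and 3.83 CPM with cholesterol. Control 3 lay just below cholesterol 1, so that the groups overlapped although the log2 fold change was -1.86 ± 0.57. Within the pairs Dhcr7 was lower in each, and it passed with the block in edgeR (-1.80, adjusted p = 9.59e-04) but not in DESeq2 (adjusted p = 0.114).

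**Figure D2:**
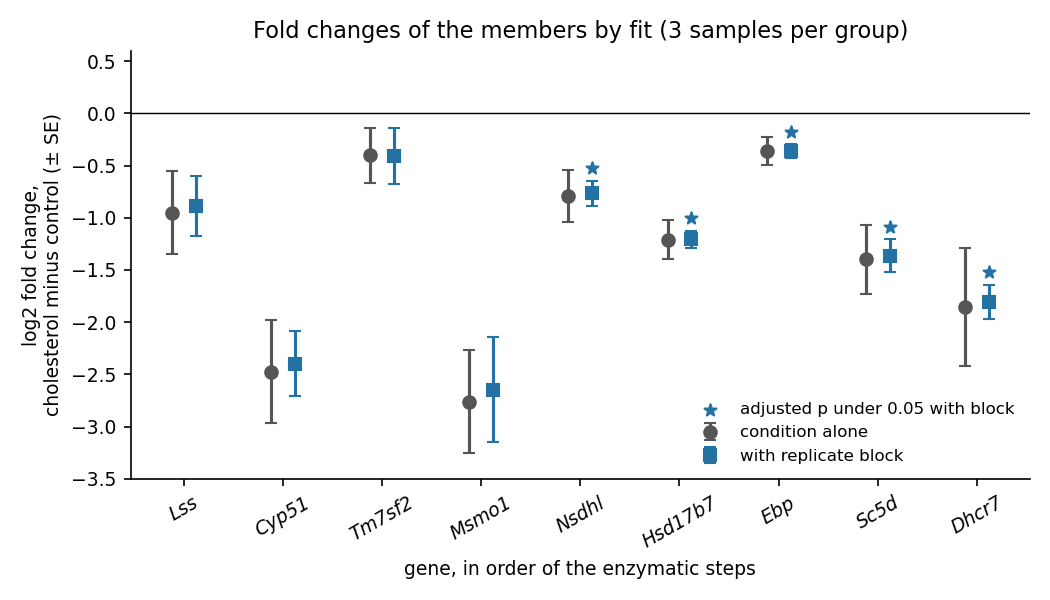
Log2 fold change, cholesterol minus control, with its SE (y axis) for the 9 enzymes in pathway order, from edgeR with condition alone (grey circles) and with the replicate block (blue squares), 3 samples per group. Stars mark the 5 enzymes past an adjusted p of 0.05 with the block; Cyp51 and Msmo1 lie lowest, at -2.48 and -2.76 with condition alone, and have no star.

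The same-numbered pairs showed the same order for nearly every enzyme. Cholesterol was lower than control in all 3 pairs for 8 of 9 members, against 20.1% of genes, and Tm7sf2 was the exception, with a difference of 0.02 log2 CPM in pair 3. The difference of pair 3 was the least negative one for 9 of 9 members, against 35.3% of genes in which it was the highest of the 3. For Msmo1 the difference in log2 CPM was -3.32 in pair 1, -2.84 in pair 2 and -1.44 in pair 3, which corresponds to folds of 10.03, 7.19 and 2.73. For Cyp51 it was -2.83, -2.44 and -1.61, and for Dhcr7 -2.05, -1.90 and -1.06.

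**Figure D3:**
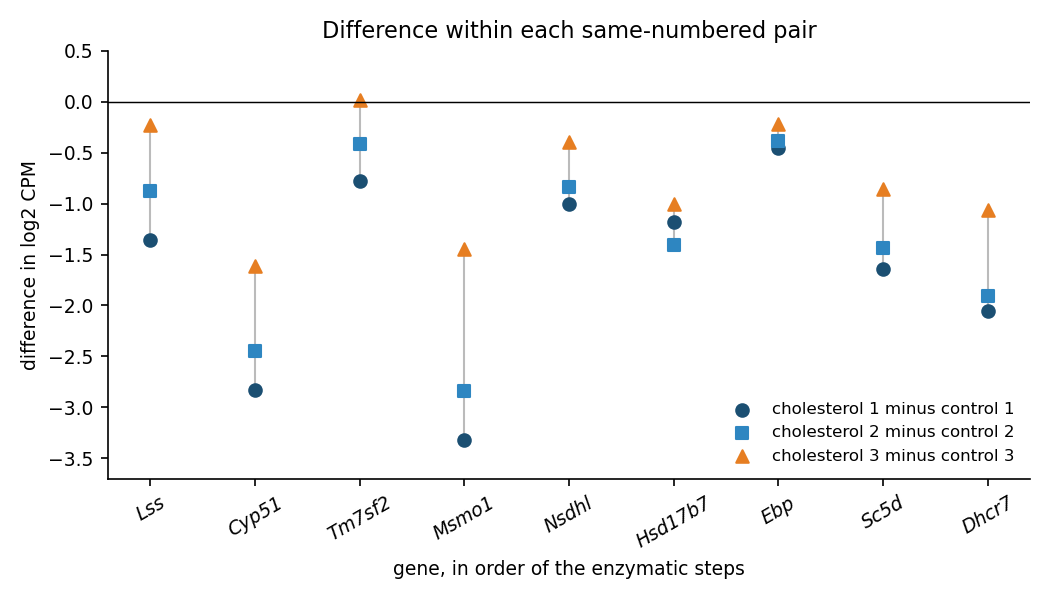
Difference in log2 CPM between the cholesterol sample and the control sample with the same number (y axis) for the 9 enzymes in pathway order, with a symbol for each of the 3 pairs. Pair 3 (orange triangles) is the highest symbol for all 9 enzymes and lies at 0.02 for Tm7sf2.

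The pairs differed mainly on the control side. The mean log2 CPM of the members was 5.34, 4.98 and 4.09 in controls 1 to 3 and 3.72, 3.58 and 3.33 in cholesterol 1 to 3, with an SD of 0.64 in the controls and 0.19 with cholesterol. The SD of log2 CPM was larger in the controls for 8 of 9 members, against 52.5% of genes, with Tm7sf2 again the exception. Control 3 was the lowest control for 9 of 9 members, against 42.6% of genes. Each sample was left out in turn. Because control 3 was the lowest control, leaving it out made every difference larger by construction. The log2 fold changes of Cyp51 and Msmo1 were then -2.85 and -3.15, and these 2 members passed with condition alone in edgeR (adjusted p = 0.0416 and 0.00724), against 0.0615% of genes. Leaving out control 1, the highest control, made the differences smaller, with log2 fold changes of -0.56 for Lss, -2.02 for Cyp51, -2.31 for Msmo1, -0.54 for Nsdhl and -1.33 for Dhcr7. Leaving out any sample other than control 3 gave 0 members called. With the block and pair 3 left out, 8 of 9 members passed, all but Tm7sf2, against 4.64% of genes, and the log2 fold changes ranged from -0.42 for Ebp to -3.10 for Msmo1 among these. With pair 1 left out 7 members passed, against 6.12% of genes, and with pair 2 left out Hsd17b7 and Ebp passed, 2 of 9 members against 1.99% of genes.

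The order of the enzymes by level per length differed between the groups. In the controls the means on the FPKM scale were 48.7 for Msmo1, 21.6 for Nsdhl, 19.7 for Ebp, 16.8 for Cyp51, 13.6 for Sc5d, 9.20 for Dhcr7, 6.69 for Hsd17b7, 5.98 for Lss and 1.38 for Tm7sf2. With cholesterol they were 15.6 for Ebp, 12.7 for Nsdhl, 7.29 for Msmo1, 5.46 for Sc5d, 3.51 for Lss, 3.08 for Cyp51, 2.97 for Hsd17b7, 2.54 for Dhcr7 and 1.06 for Tm7sf2. In the controls the SDs, from 0.154 for Tm7sf2 to 28.6 for Msmo1, were wide enough for neighbours in this order to overlap in their ranges over the 3 samples, except for Tm7sf2, whose range lay below those of all other members. Within each control sample Msmo1 was the highest member and Tm7sf2 the lowest. With cholesterol, Ebp and Nsdhl lay above the other members in every sample, with Ebp above Nsdhl within each sample although their ranges overlapped, and Msmo1 (6.64 to 7.65) lay above Sc5d (4.22 to 6.35), which lay above the rest, whereas Lss, Cyp51, Hsd17b7 and Dhcr7 overlapped.

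Msmo1 thus moved from rank 1 to rank 3 and Ebp from rank 3 to rank 1. The log2 ratio of Msmo1 to Ebp in CPM was 1.80, 1.42 and 0.23 in the controls and -1.06, -1.03 and -0.99 with cholesterol. This pair was picked for its values, so the ratio is given without a test. Of the summed FPKM of the 9 members, Msmo1 made up 36.8, 34.8 and 23.9% in the controls and 12.5, 13.5 and 14.5% with cholesterol. Across the members, the signed log2 fold change was only loosely related to the level in the controls (Spearman's rho = -0.30, and Pearson's r = -0.55 with log2 FPKM, over 9 genes that share the same 6 libraries). The negative sign means that members with a higher control level tended to have the larger fall.

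**Figure D4:**
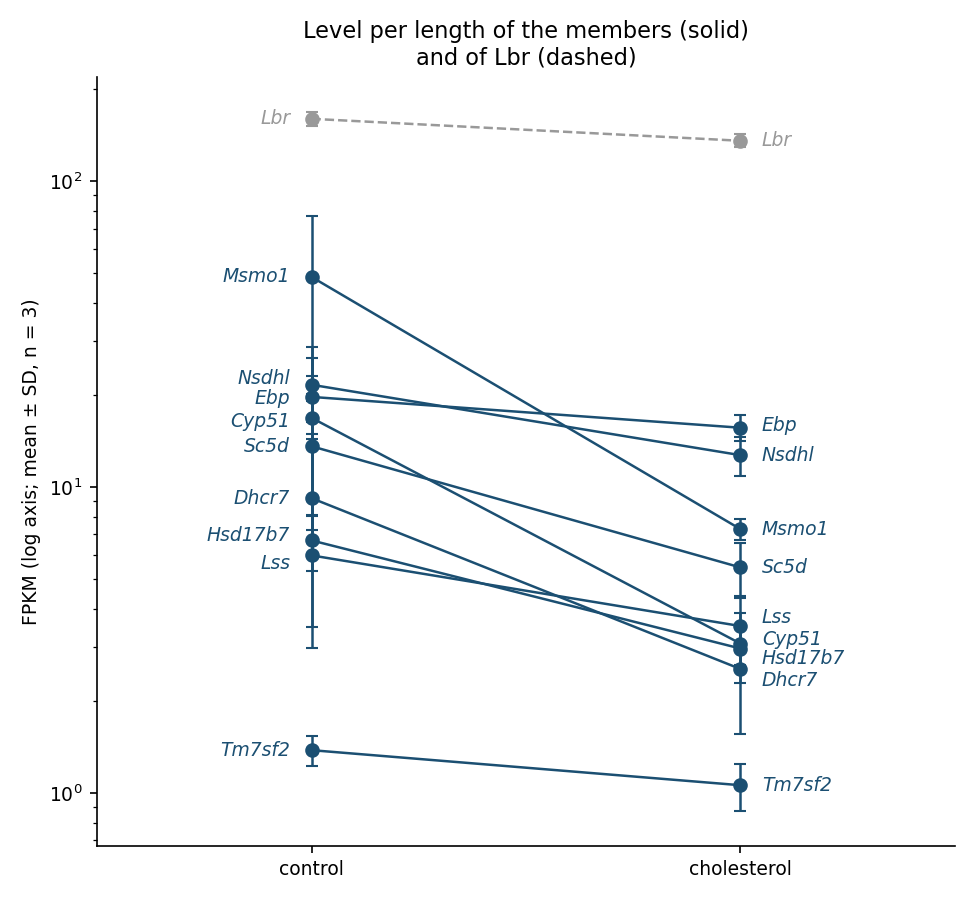
Mean level per length (FPKM, log axis, ± SD, n = 3) of the 9 enzymes (solid lines) and of Lbr (dashed line) in the control group (left) and with cholesterol (right). The line of Msmo1 runs from 48.7 to 7.29 and crosses those of Ebp and Nsdhl, and Lbr stays highest and Tm7sf2 lowest in both groups.

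The electron donors and haem partners of the oxidases, Por, Cyb5r3, Cyb5a, Cyb5b and Pgrmc1, had a median log2 fold change of -0.04. None of these 5 passed with condition alone, and 2 were called lower with the block, Por (-0.30, adjusted p = 0.0286) and Cyb5b (-0.45, adjusted p = 7.10e-05), against 5.2% of genes.

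The 10 genes of the early pathway, from Acat2 to the squalene epoxidase Sqle, had a median log2 fold change of -0.99. Means were lower in 10 of 10, against 5405 of 11277 genes, and the groups did not overlap in 8 of 10, against 4.28% of genes. Of the early genes, 0 passed with condition alone, 5 with the block, against 5.2% of genes, and 6 in DESeq2, against 0.228%. The largest difference among them was that of Mvd (-2.18 on the log2 scale) and the smallest that of Pmvk (-0.69). The mean log2 CPM of the early genes was 6.01, 5.64 and 4.88 in controls 1 to 3 and 4.43, 4.35 and 4.22 in cholesterol 1 to 3, the same order of samples as for the post-squalene members. Of 9 genes of sterol sensing and uptake, 7 had lower means, against 5405 of 11277 genes, and 0 passed with condition alone. With the block 1 was called higher, the protease gene Mbtps1, against 186 of 11277 genes. In DESeq2 3 were called lower, among them Srebf2 (-1.33), which encodes SREBP2, against 0.228% of genes. Of 7 genes of the oxysterol receptor LXR and its targets, 5 had higher means, against 5872 of 11277 genes. Of these 7, 4 were called higher with the block, against 186 of 11277 genes. With condition alone 1 rose, the sterol exporter Abcg1 (4.05, adjusted p = 0.00292 in edgeR), against 1 of 11277 genes.

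Over the 6 samples the members ran closely together. The 36 pairwise correlations of log2 CPM had a median of 0.96 and ranged from 0.57, between Lss and Tm7sf2, to 0.997, between Cyp51 and Sc5d. These values describe 6 libraries that fall into 2 groups and share their depth and scaling. Among 7244 genes with a mean of at least 10 CPM, the 10 genes outside the set whose log2 CPM was most like the members' mean standardized profile were Gm38481 (r = 0.9997), Rdh11 (0.997), Pmvk (0.996), Sqle (0.994), Traf7 (0.993), Pank3 (0.992), Fdps (0.991), Mvk (0.988), Pcyt2 (0.985) and Tmem41b (0.983). Of these, Pmvk, Sqle, Fdps and Mvk belong to the early pathway list. Gm38481, a protein-coding RefSeq gene model at chr2:53694340-53696857 (GRCm38.p6), was 159, 123 and 59.6 CPM in the controls and 43.6, 40.9 and 35.1 CPM with cholesterol. Whether Gm38481 shares reads with another gene was not tested, so its values are uncertain.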

How the data were processed

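TER119+ erythroblasts were profiled by RNA-seq in 3 control and 3 cholesterol samples. The authors deposited expected counts (estimated reads per gene, not normalized, 27.9 to 29.5% of them not whole) and a second table without a unit, taken as FPKM because count, library total and value together give a plausible transcript length. The submitters' processing notes name HISAT2 2.0.4, Bowtie2 2.2.5, RSEM 1.2.12, DESeq2 1.4.5 and GRCm38.p6 without roles. Expected counts were rounded and tested in R 4.3.3 with edgeR 4.0.16 (filterByExpr with minimum counts of 10 per sample and 15 in total, TMM, robust quasi-likelihood test, Benjamini-Hochberg adjustment over 11277 genes). SEs were derived from the F statistic, and log2 CPM used a prior count of 2. Total counts of 19826849 to 20061724 per library set the precision at low levels.

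Replicate numbers come from the sample titles. For samples sharing a number, the deviations from the group means correlated at 0.73, 0.35 and 0.82. Between samples with different numbers the values lay between -0.80 and 0.35. The value of pair 2 (0.348) was nearly equalled by control 1 with cholesterol 2 (0.346), so these values do not single out that pair. The numbers were taken to pair the samples, and the fit with the block is printed where it changed a call of an enzyme or a count of a list. Groups of 3 allow an exact two-sided permutation test no p below 0.1. No 2 libraries were copies (chi-square per degree of freedom at least 8.77). Alternatives were DESeq2 1.42.0, limma 3.58.1 on log2(FPKM + 1) and log2(FPKM + 0.1), other filters, and each sample left out. Fits with the block and a pair left out, or without a filter, were added after seeing the data. The methods were tested on simulated data.

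Genes were placed by GENCODE vM21 (GRCm38) and promoters taken from RefSeq (GRCm38.p6), where all 9 members matched by symbol. The members and lists were chosen with earlier results of these data known. The genes named are the 9 members, examples from the lists, and the 10 genes most like the members over the 6 samples. No protein sequence was used here, and some genes of the lists are not reported here.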

Additional observations from a re-analysis of the deposited data

How the results depend on the processing

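The median log2 fold change of the 9 enzymes stayed between -1.36 and -0.94 under 17 alternatives, and no enzyme changed direction in any of them. Tm7sf2 passed in none. What moved was the number of calls. With condition alone, 0 enzymes and 0 genes were called lower and 1 gene was called higher, and leaving out a sample gave 0 to 2 enzymes and 0 to 7 genes called lower, the highest values without control 3. Without cholesterol 3, 1 gene was called lower. DESeq2's Wald test called 4 enzymes, 26 genes lower and 2 higher. The replicate block called 5 enzymes, 586 genes lower and 186 higher, and with the block and no filter these were 5, 829 and 368. With the block, leaving out pair 1 gave 7 enzymes, 703 genes lower and 118 higher, leaving out pair 2 gave 2, 229 and 67, and leaving out pair 3 gave 8, 516 and 210. These fits with the pairing were added after seeing the data, except the block itself, and a block on 2 pairs leaves little to estimate the spread from. The other settings, DESeq2 size factors, no filter, at least 10 counts in every sample and limma on FPKM, called 0 enzymes. The cause of these shifts was not tested. Tm7sf2 had the fewest counts, 26 to 45 per library.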

Other observations

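The length that the authors' count and FPKM imply for a gene was compared between the groups. For 7 of the 9 enzymes the values of the groups overlapped. For Lss it was 5190, 5175 and 5165 bases in controls 1 to 3 and 4508, 4524 and 5064 bases in cholesterol 1 to 3, a mean 9.2% lower with cholesterol and without overlap. Of 8482 genes with at least 1 FPKM in every sample, 57 (0.672%) differed by more than 5% between the group means without overlap. On the FPKM scale the mean of Lss was 1.70-fold lower with cholesterol, against 1.93-fold in the fit to counts. For Dhcr7 the implied length was 1.61% higher with cholesterol, also without overlap. The counts of Cyp51 and Sc5d were not whole numbers in any of the 6 samples, those of Hsd17b7 in 4 and those of Lss in 2, whereas the counts of the other 5 enzymes were whole throughout.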
